A study of Mus musculus with 2 samples.

Results

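The fibroblast-like stromal cells were 84 of 14795 deposited cell barcodes, 41 of them from PyMT-M tumors and 43 from PyMT-N tumors. The members were selected on their RNA content. A barcode was a member when it held at least 1000 detected genes and at most 10% mitochondrial UMIs (unique molecular identifiers, each counted as 1 RNA molecule), and when Col1a1, Col1a2, Col3a1, Dcn and Lum together reached 8000 CPM (UMIs of a gene scaled to 1000000 UMIs of the cell). It could carry at most 2 UMIs of Pecam1, Emcn, Flt1 and Kdr, at most 1 of Ptprc and Tyrobp, and at most 2 of Krt8, Krt18 and Rhox5. The collagen, endothelial, leukocyte and tumor genes of this rule therefore described the choice and were not findings.

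The 2 libraries came from tumors of the PyMT-M and PyMT-N cell lines, sublines of the MMTV-PyMT mammary tumor model on the C57BL/6 background, in which the mouse mammary tumor virus promoter drives the polyoma middle T antigen in mammary epithelium. The lines were transplanted into the mammary fat pad of female mice aged 6 to 8 weeks, and the labels name no treatment of either group. PyMT-M tumors are macrophage-rich (High-MAC) and PyMT-N tumors macrophage-poor (Low-MAC). Cells of 3 tumors were pooled for each library and enriched for endothelial cells before droplet sequencing of RNA 3′ ends, so each condition was a single library and each line a single model. The labels name the cells endothelial, whereas the members had near-absent endothelial RNA. No test between conditions could be made, and the intervals given below are exact 95% intervals that cover counting error only. How many fibroblasts the tumors held cannot be read from cells that passed an endothelial sort.

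Fibroblasts make the collagen scaffold of connective tissue, and in mammary tumors they are known to take on several states. Myofibroblast-like cells express smooth-muscle contractile genes, inflammatory fibroblasts secrete chemokines and complement proteins, and adventitial or universal fibroblasts, marked by Pi16, Dpp4, Cd34 and Ly6a, line vessels and fascia of normal tissue. Mural cells (pericytes and vascular smooth muscle) also make collagen and can resemble fibroblasts.

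Members accounted for 0.652% of the 6284 kept barcodes of PyMT-M (exact binomial interval 0.469 to 0.884%) and, among the 5574 of PyMT-N, for 0.771% (0.559 to 1.04%). The intervals of the shares overlapped. The members differed in depth, the median cell having 7306 UMIs in PyMT-M (2165 to 21497) against 24185 in PyMT-N (6402 to 48523). Their summed UMIs came to 323132 for PyMT-M and 1070766 for PyMT-N, which makes a single UMI worth 3.09 CPM of the former sum and 0.934 CPM of the latter. Endothelial cells of the same libraries differed in the same direction (medians of 5197 and 12361 UMIs), whereas tumor cells were slightly deeper in PyMT-M (23725 and 20771). The 2 libraries shared 20 barcode sequences, none of them a member's.

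At the collagen limit, the lowest PyMT-M members stood at 9784 and 10702 CPM, the lowest PyMT-N members at 8122 and 8783 CPM, and the highest barcodes left out for this limit alone at 7116 and 6970 CPM and at 7829 and 6347 CPM. Of the barcodes past the collagen limit (50 for PyMT-M, 51 for PyMT-N), 6 and 8 were left out for tumor UMIs and 3 and 1 for endothelial UMIs, 1 of them in PyMT-N for both. The median member reached 37245 CPM of the 5 rule genes in PyMT-M and 41399 CPM in PyMT-N.

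The label was checked with markers that the rule did not use. Pdgfra, the platelet-derived growth factor receptor of fibroblasts, had 238 CPM in PyMT-M members, 428 CPM in PyMT-N members and at most 57.6 CPM in the tumor cells of either library. Fbln1, a secreted fibulin, had 300.2 and 193 CPM in members and at most 1.45 CPM in tumor cells. Not all fibroblast identity genes followed, and S100a4 was lower in members than in tumor cells of both libraries (254 against 906 CPM in PyMT-M, 57.9 against 2739 CPM in PyMT-N). The defining markers of other cell types were at or near 0. Among endothelial markers outside the rule, Cdh5 had 1 UMI in each library's members, Cldn5 none, Esam 1 and 0, and Vwf 1 and 3. No member of either library had a UMI of Fcer1g, Cd68 and Lyz2 of myeloid cells, Cd3e, Cd3g, Cd79a and Nkg7 of lymphocytes, Epcam and Cdh1 of epithelium, Adipoq, Plin1, Cidec and Lep of adipocytes, Sox10 of Schwann cells, Msln and Upk3b of mesothelium, or Acan and Tnmd of cartilage and tendon. A count of 0 over a library allows up to 3 counts, about 9.28 CPM in PyMT-M and 2.80 CPM in PyMT-N. The whole endothelial, myeloid and tumor lists hold genes that the rule limited, so their sums are a description and no check of the label. The 12 endothelial genes summed to 294 and 63.5 CPM in members, mostly from Cd34, which fibroblasts also express (269 and 36.4 CPM), the 12 myeloid genes to 15.5 and 8.41 CPM with Csf1r the most abundant, and the 10 tumor and epithelial genes to 40.2 and 17.7 CPM with Rhox5 and Krt18 the most abundant. The 8 lymphocyte genes summed to 3.09 and 1.87 CPM with Trac the most abundant. The 8 adipocyte genes summed to 155 and 51.4 CPM with the lipase gene Lpl the most abundant, the 6 Schwann cell genes to 9.28 and 12.1 CPM, the 6 mesothelial genes to 6.19 and 0.934 CPM, the 8 bone matrix genes to 121 and 217 CPM with Runx2 the most abundant, and the 8 cartilage and tendon genes to 668 and 188 CPM, mostly Cilp.

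The RNA Xist, which coats the inactive X chromosome of female cells, was looked at after its values had been seen. It had 430.2 CPM in PyMT-M members, with a UMI in 30 of 41 cells (73.2%, interval 57.1 to 85.8%), and 593 CPM in PyMT-N members, with a UMI in all 43. PyMT-M tumor cells had 0.332 CPM and a UMI in 0.552% of 4889 cells, whereas PyMT-N tumor cells had 1223 CPM and a UMI in 93.9% of 3296. After each cell was thinned to 3000 UMIs, which left out 4 shallow PyMT-M members, the shares were 62.2% of 37 PyMT-M members, 0.102% of PyMT-M tumor cells and 76.7% of PyMT-N members. PyMT-M endothelial cells had 793 CPM, so members and endothelial cells carried Xist RNA that the tumor cells of the same library lacked, a separation that the rule did not use. In PyMT-N members and tumor cells both carried it, and Xist did not separate them.

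Against the tumor cells of their own library (Krt8, Krt18 and Rhox5 at 3 UMIs or more, Col3a1 below 3000 CPM, no Pecam1 or Flt1 UMI; 4889 and 3296 cells), the members were led by matrix genes. These values describe the cells the rule picked and carry no test. Genes were ranked when the sums compared held 50 UMIs or more. Of 13074 ranked in PyMT-M, 17.7% were at least 2-fold higher in members and 17.3% at least 2-fold lower, and of 13239 in PyMT-N, 13.3% and 14.9%. Col1a2, a chain of type I collagen, had 10435 CPM in PyMT-M members against 0.646 CPM in tumor cells, and 14506 against 2.26 CPM in PyMT-N. Its partner Col1a1 had 7031 CPM against 17.6 CPM in PyMT-M and 12035 against 86.8 CPM in PyMT-N. Col3a1, type III collagen, was less separated, with 15808 against 301.3 CPM and 16153 against 118 CPM, although the tumor cells had been limited in Col3a1.

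Outside the rule, the genes with the highest lower ratio of the 2 libraries were Col5a2, the microfibril protein gene Mfap5, the guidance ligand gene Slit3, Cpxm1, Abi3bp, the noncoding RNA Meg3, Thbs2, Col12a1, Gpx3, Spon1, Crabp1 and Ctsk, the collagen-degrading cathepsin K. Mfap5 had 2073 CPM in PyMT-M members and 1073 CPM in PyMT-N members, against 0.903 and 0.0663 CPM in tumor cells. Slit3 had 938 and 1393 CPM, against 0.0497 and 0.212 CPM. Mfap5 and Slit3 were therefore nearly absent from both tumor lines. The retinoid-binding protein gene Crabp1 was less even among members, with a UMI in 12 of 41 PyMT-M cells and 37 of 43 PyMT-N cells, and 1 PyMT-M cell held 44.1% of its UMIs there. Col5a2 had a UMI in all 84 members, whereas Spon1 was seen in 20 of 41 and 41 of 43.

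**Figure D1:**
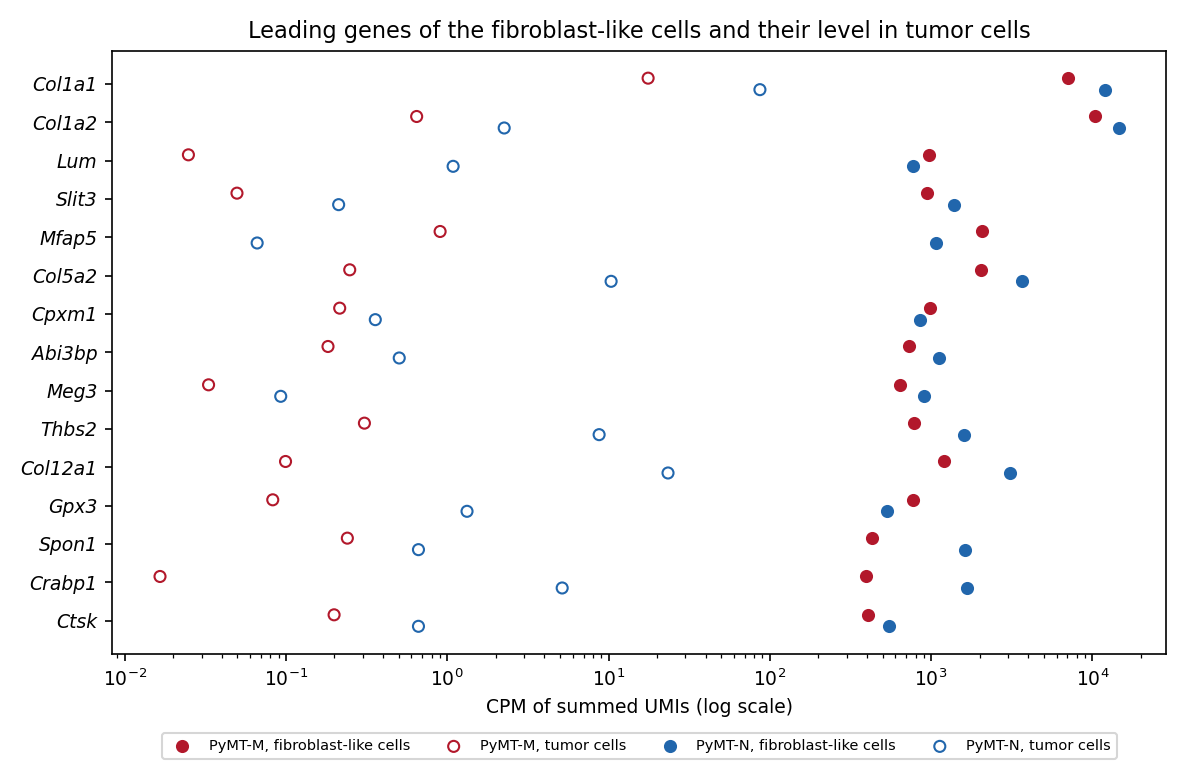
CPM of summed UMIs (log scale) for the 15 leading genes, in fibroblast-like cells (filled) and tumor cells (open) of PyMT-M (red) and PyMT-N (blue). The lowest filled point is Crabp1 in PyMT-M at 393 CPM, and the highest open point is Col1a1 in PyMT-N at 86.8 CPM.

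The collagen and matrix lists described the members further. All 8 ranked fibrillar collagen genes were at least 2-fold higher than in tumor cells in PyMT-M and all 9 in PyMT-N, with median log2 ratios of 5.32 and 5.72. Of the small leucine-rich proteoglycans, which bind collagen fibrils and include the rule genes Dcn and Lum, 7 of 7 and 8 of 8 were higher (medians 12.09 and 4.19). Bgn, biglycan, differed mainly between the tumor cells, which had 3.11 CPM of it in PyMT-M and 1945 CPM in PyMT-N, while members had 3989 and 4688 CPM. PyMT-N tumor cells also carried elastic fiber and matricellular RNA, such as Fn1 (0.257 CPM in PyMT-M tumor cells, 5086 CPM in PyMT-N tumor cells, 2494 and 2678 CPM in members). The median over elastic fiber genes was 7.63 in PyMT-M but 1.61 in PyMT-N, and over matricellular genes 6.74 and 2.93. How far free RNA from tumor cells adds to the members' counts of such genes was not tested.

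Serpinh1, the collagen chaperone, had 2408 and 2365 CPM in members and 629.6 and 697 CPM in tumor cells, and collagen processing genes separated the classes less (15 of 20 ranked genes at least 2-fold higher in PyMT-M and 14 of 19 in PyMT-N). Sparc, a collagen-binding matricellular protein, had 12753 and 13817 CPM in members. Vim, often used as a mesenchymal marker, did not mark the members here, with 2887 and 1895 CPM against 6125 and 2327 CPM in tumor cells. Ranked fibroblast identity genes were at least 2-fold higher than in tumor cells for 8 of 11 in PyMT-M, with 3 lower, and for 6 of 13 in PyMT-N, with 1 lower. The lower genes were Vim, S100a4 and the transcription factor gene Twist2 (49.5 against 108 CPM) in PyMT-M, and S100a4 in PyMT-N, where Twist2 was higher (163 against 2.22 CPM).

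Between the 2 conditions, most listed collagen, basement membrane, elastic fiber and collagen processing genes of the members stayed within 2-fold. Many contractile, adventitial, immune and guidance genes differed. Among the collagens, Col1a1, Col1a2 and Col3a1 chose the members, and 3 fibrillar collagens outside the rule were at least 2-fold lower in PyMT-M. Of 4471 ranked genes, 5.41% (242) were at least 2-fold higher in PyMT-M and 10.4% (466) at least 2-fold lower, and the median of all log2 ratios, taken as PyMT-M over PyMT-N here and below, was −0.088. At these depths the minimum of 50 UMIs and the 2-fold limit place the interval of any higher gene above 0. That all 242 lay there is therefore no support for them. Of the 466 lower genes, 434 had an interval below 0 or no UMI in PyMT-M, where no interval exists. Since PyMT-M members held fewer UMIs, a gene high in PyMT-N reached the minimum of 50 more easily than one high in PyMT-M.

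The log2 ratio of Col3a1 was −0.03 (interval −0.08 to 0.01). Col1a2 and Col1a1 were lower in PyMT-M by less than 2-fold (−0.48 and −0.78). Of 9 ranked fibrillar collagen genes, 0 were 2-fold higher and 3 lower, against 5.41% and 10.4% of all ranked genes. Their median of −0.78 was the ratio of Col1a1, which chose the members together with Col1a2 and Col3a1. The 3 lower genes were outside the rule. They were Col27a1 (17 and 199 UMIs, 52.6 and 186 CPM, −1.82), Col11a1 (8 and 80 UMIs, −1.59) and Col24a1 (9 and 69 UMIs, −1.21). Col5a1, Col5a2 and Col5a3, also outside the rule, stayed within 2-fold (−0.42, −0.83 and −0.43). Among the other interstitial collagens, Col14a1, which associates with mature fibrils, was higher in PyMT-M (675 and 182 CPM, 1.89) and Col12a1 lower (1195 and 3080 CPM, −1.37). The list of other interstitial collagens had a median of −0.34 (1 of 8 higher, 1 lower), basement membrane genes −0.05 (1 of 11 higher, 0 lower) and collagen processing genes 0.10 (1 of 18 higher, 1 lower). Sparc (−0.12), Fn1 (−0.10) and Postn (5153 and 6239 CPM, −0.28) stayed within 2-fold. Fibroblast identity genes had a median of −0.17 over 11 ranked genes, with 2 higher and 2 lower.

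The contractile list, the smooth-muscle genes that mark myofibroblasts, was lower in PyMT-M members, with 0 of 10 ranked genes at least 2-fold higher and 9 lower, against 10.4% of all ranked genes lower (list median −2.03). Tagln, which encodes the actin-binding protein transgelin, had 408.5 CPM (132 UMIs, 16 of 41 cells) in PyMT-M members against 2091 CPM (2239 UMIs, 29 of 43 cells) in PyMT-N members (log2 ratio −2.36, interval −2.62 to −2.10). Acta2, smooth-muscle actin, had 551 and 1674 CPM (−1.60, −1.83 to −1.38). Cald1, caldesmon, had 792 and 1977 CPM (−1.32), with similar levels in tumor cells (782 and 1753 CPM), and the part of free tumor RNA in its ratio was not tested. Actg2, another smooth-muscle actin, had no UMI in PyMT-M members and 269 UMIs in 11 PyMT-N cells, which puts its log2 ratio at −4.76 or lower when 3 counts are allowed for the former. Cnn2, at −0.95, was the ranked gene short of 2-fold.

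In the other cell classes the contractile genes did not show the same shift. Their median ratio was −0.25 in tumor cells (3 of 10 higher, 4 lower, against 21% and 25.6% of all genes) and 3.999 in endothelial cells (5 of 8 higher, 0 lower, against 3.91% and 7.93%). Mural and collagen genes moved with the contractile genes in the endothelial cells, with 5 of 8 ranked mural genes higher and 2 lower (median 3.84), Rgs5 at 88.0 and 2.34 CPM, and 6 of 7 fibrillar collagen genes higher and 1 lower (median 3.25), and their part in the endothelial value was not tested. In tumor cells Acta2 had 223 and 50.6 CPM, the opposite order to the members, whereas Tagln (0.290 and 7.32 CPM, −4.66) and Cald1 (−1.17) had the same order.

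The adventitial list was higher in PyMT-M members, with 9 of 9 ranked genes at least 2-fold higher, against 5.41% of all ranked genes (list median 2.89). Pi16, a peptidase inhibitor that marks adventitial fibroblasts, was at 542 and 20.5 CPM, from 175 UMIs in 24 of 41 PyMT-M cells and 22 UMIs in 7 of 43 PyMT-N cells (log2 ratio 4.72, interval 4.08 to 5.43). Ly6a, the stem cell antigen Sca-1, was seen in all 41 PyMT-M cells and in 22 of 43 PyMT-N cells (2791 and 133 CPM, 4.40). Ly6c1 had 869.6 and 44.8 CPM (4.28) and the secreted lectin Clec3b 486 and 34.6 CPM (3.81). Dpt, dermatopontin, had 832 and 162.5 CPM (2.36). The lowest ratio among the ranked genes of the list was that of Gsn, gelsolin, with 783 and 368 CPM (1.09).

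Thinned to equal depth, the same genes stayed apart, with Pi16 in 45.9% of PyMT-M and 4.65% of PyMT-N members, and Ly6a in 94.6% and 16.3%. Endothelial cells express Ly6a and Ly6c1 as well (2264 and 631 CPM, and 1201 and 575 CPM), with log2 ratios of 1.84 and 1.06. Over the 7 of 14 adventitial genes ranked in endothelial cells the median was 0.29, with 2 higher and 1 lower, against 3.91% and 7.93% of all genes. Pi16 and Clec3b were at most 1.14 CPM in endothelial cells. In tumor cells the median was −0.13.

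**Figure D2:**
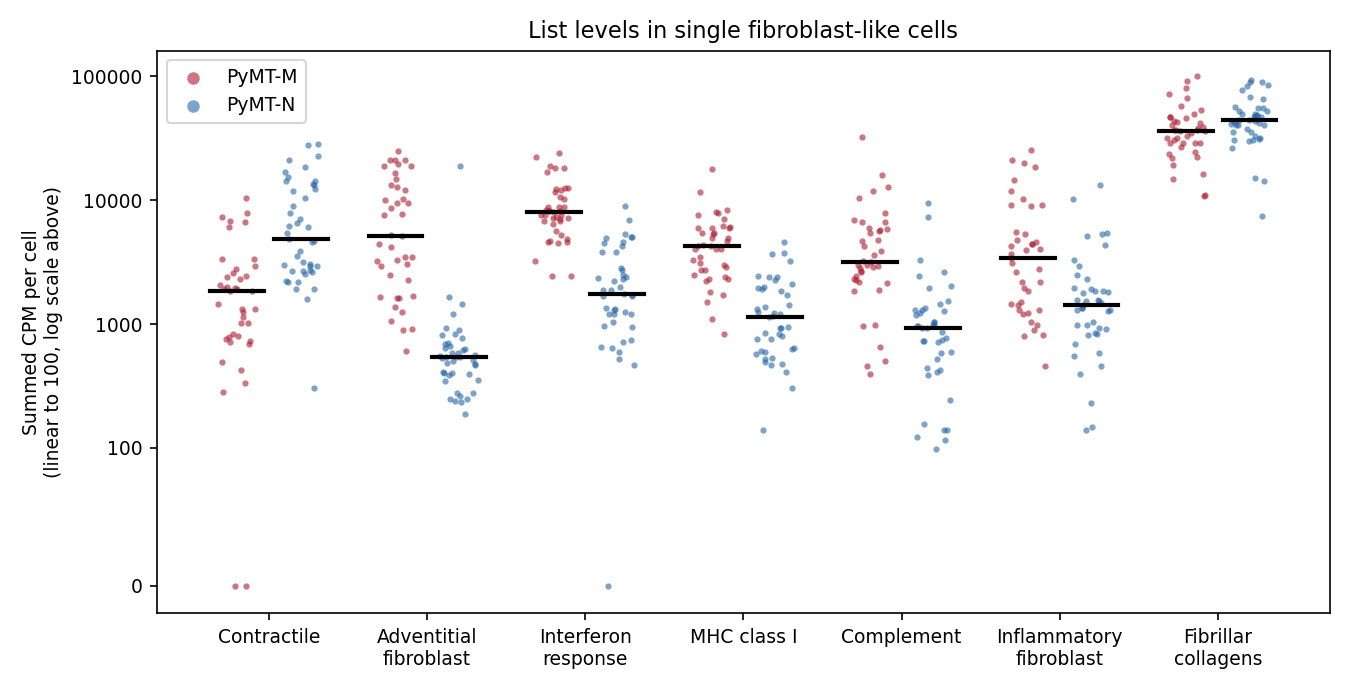
Summed CPM of 7 gene lists in each of the 41 PyMT-M (red) and 43 PyMT-N (blue) fibroblast-like cells, on an axis linear up to 100 and logarithmic above, with black bars at the medians. The adventitial medians are 5102 and 541 CPM and the contractile medians 1853 and 4887 CPM. Fibrillar collagens, which include Col1a1, Col1a2 and Col3a1 of the rule, overlap.

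Single members were seldom high in both the contractile and the adventitial list. Contractile sums had a median of 1853 CPM per PyMT-M cell (0 to 10495) against 4887 CPM per PyMT-N cell (305 to 28632). Adventitial sums had a median of 5102 CPM per PyMT-M cell (605 to 25143) against 541 CPM per PyMT-N cell (187 to 18824). The ranges of both lists overlapped between the libraries, although all 41 PyMT-M cells lay above the PyMT-N median of the adventitial list. Ly6a, which endothelial cells also express, was the most abundant gene of that list in PyMT-M members (2791 of 7201 CPM). At least 5000 CPM of adventitial genes was found in 21 PyMT-M cells and 1 PyMT-N cell, and at least 5000 CPM of contractile genes in 6 and 21. No cell reached both. The contractile sum exceeded the adventitial sum in 10 of 41 PyMT-M cells and in 41 of 43 PyMT-N cells.

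Across the 41 PyMT-M cells the lists ran opposite to each other (Spearman's rho −0.67), while across the 43 PyMT-N cells, where adventitial counts were low, rho was −0.07. These cells share a library, and sums of CPM within a cell compete for the same total. In PyMT-N the contractile sum also rose with the cell's UMI total (rho 0.67; 0.26 in PyMT-M), whereas the adventitial sum did not (−0.05 and −0.26). With fibrillar collagen CPM, rho of either list lay between −0.20 and 0.20 in both libraries. The adventitial sum rose with the sum of the interferon-response genes described below (rho 0.50 in PyMT-M, 0.34 in PyMT-N).

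A single PyMT-N cell stood far above the others of its library in the adventitial list. It held 22950 UMIs and 18824 CPM of adventitial genes, and the next PyMT-N cell 1653 CPM. All 37 Clec3b UMIs, 36 of 48 Ly6c1 UMIs, 61 of 142 Ly6a UMIs and 11 of 22 Pi16 UMIs of PyMT-N members were in this cell, together with 39 of the 41 UMIs of Tnxb, the tenascin of elastic connective tissue, and 11 of the 12 of Sfrp4, a secreted Wnt-binding protein. It had no UMI of Tagln, Acta2 or Cdh5, and 1 of Krt18, which the rule limits. Without it the median ratio of the adventitial list was 4.47 in place of 2.89. It was looked at after the gene values had been seen.

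**Figure D3:**
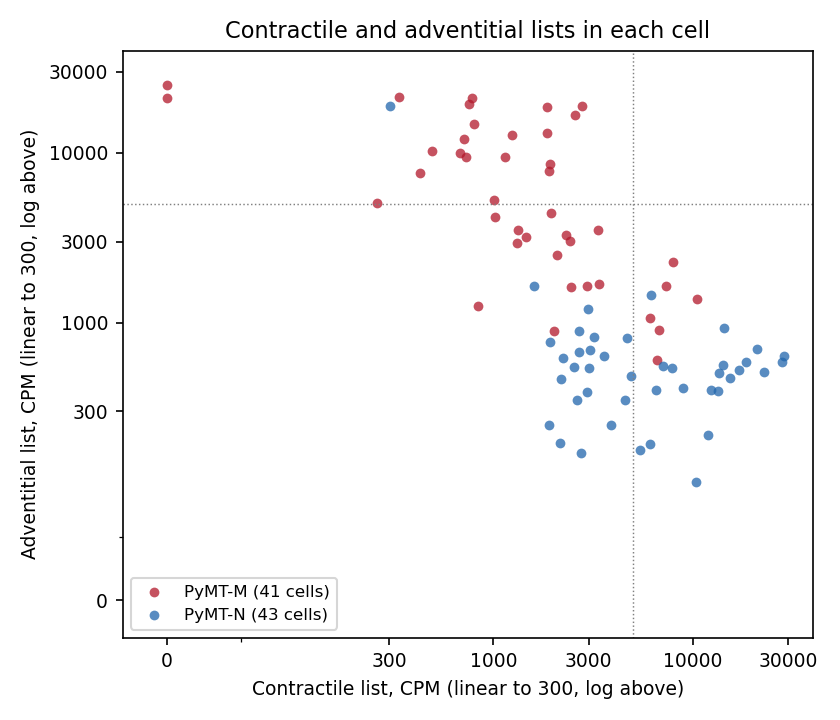
Contractile against adventitial list CPM in each fibroblast-like cell of PyMT-M (red, 41 cells) and PyMT-N (blue, 43 cells), with both axes linear up to 300 and logarithmic above and dotted lines at 5000 CPM. No cell lies in the upper right field, and 1 PyMT-N cell lies among the PyMT-M cells at the upper left.

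Interferon-response genes, which cells switch on after interferon binds its receptors, were higher in PyMT-M members for 12 of 14 ranked genes, against 5.41% of all, with 0 lower (median 2.07). Ifitm3, a membrane protein that blocks virus entry, had 3921 and 1305 CPM (1.59, 1.48 to 1.70), in tumor cells 1752 and 1273 CPM. Ifi27l2a had 1479 and 198 CPM (2.90, 2.67 to 3.14). Bst2, tetherin, had 1074 and 249 CPM (2.11), and the ubiquitin-like protein gene Isg15 464 and 91.5 CPM (2.34). The highest ratio was that of the chemokine gene Cxcl9 (45 and 16 UMIs, 3.22) and the lowest that of Rsad2 (11 and 49 UMIs, −0.43), for which 1 PyMT-N cell held every UMI of its library. Per cell, the median list sum was 8000 CPM for PyMT-M (2422 to 23818) against 1745 CPM for PyMT-N (0 to 8944), and all 41 PyMT-M cells lay above the PyMT-N median. Thinned to equal depth, only 5 of the 14 genes were still ranked, with a median of 1.60 (2.11 before thinning).

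In endothelial cells the same list had a median ratio of 1.21, with 19 of 23 ranked genes higher and 0 lower, against 3.91% of all genes higher there. In tumor cells the median was 0.73, and 7 of 23 were higher and 3 lower, against 21% and 25.6% of all genes. Bst2 had 990 and 250.4 CPM in tumor cells, close to the members' levels, and the part of free RNA in its ratio was not tested. For Ifi27l2a the tumor cells had 280.4 and 4.44 CPM, below the members in both libraries.

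Promoters of the ranked interferon genes were read because most of these genes moved together. Of the 14 ranked genes, 12 had a promoter entry in RefSeq (build GRCm38.p6, the mouse assembly before that of the counts), taken as the 250 bases before the start. The letters GAAANNGAAA on either strand (N being any base; TTTCNNTTTC on the other strand), the core of the interferon-stimulated response element, were present in 7 of these 12 (58.33%) against 3.463% of 27025 genes. The 7 were Ifit1, Ifit3, Isg15, Rsad2, Bst2, Stat2 and Cxcl10, of which Rsad2 (−0.43) and Stat2 (0.95) were not 2-fold higher. A CArG box, the letters bound by serum response factor at contractile genes, was found in 2 of 8 contractile genes with an entry, Myl9 and Cnn2, against 1.624% of all genes. A kappa B motif was found in 2 of 8 inflammatory, 2 of 12 interferon and 1 of 8 contractile genes against 4.455% of all. The interferon letters were also found in 2 of 8 inflammatory genes, and none of the 3 motifs in the 3 complement and 6 adventitial genes with an entry. A match is a description of the letters and not a binding site. The interferon list was made up of interferon-response genes, and its ranked genes were read whatever their ratio. Its share of matches is therefore a trait of the list and says nothing on the difference between the conditions. The windows of 3 interferon genes and of Myl9, myosin light chain 9, chosen after their values were seen, are shown as examples of both motifs, 5′ to 3′ along the gene, with the motif in capitals (overlapping matches run together); Ifit3 lies at chr19:34583279-34583528 on the plus strand, Isg15 at chr4:156200819-156201068 on the minus strand, Bst2 at chr8:71537473-71537722 on the minus strand and Myl9 at chr2:156775214-156775463 on the plus strand.
Ifit3: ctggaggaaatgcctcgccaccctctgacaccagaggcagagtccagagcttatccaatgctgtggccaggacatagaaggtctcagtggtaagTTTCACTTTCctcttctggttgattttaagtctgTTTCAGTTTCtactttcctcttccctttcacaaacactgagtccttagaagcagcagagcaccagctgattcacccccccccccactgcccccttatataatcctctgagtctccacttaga
Isg15: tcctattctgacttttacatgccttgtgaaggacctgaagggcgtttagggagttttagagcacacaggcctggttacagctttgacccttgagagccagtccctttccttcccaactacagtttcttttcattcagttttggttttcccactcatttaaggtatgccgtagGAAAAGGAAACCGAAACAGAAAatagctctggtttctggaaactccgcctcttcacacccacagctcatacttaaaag
Bst2: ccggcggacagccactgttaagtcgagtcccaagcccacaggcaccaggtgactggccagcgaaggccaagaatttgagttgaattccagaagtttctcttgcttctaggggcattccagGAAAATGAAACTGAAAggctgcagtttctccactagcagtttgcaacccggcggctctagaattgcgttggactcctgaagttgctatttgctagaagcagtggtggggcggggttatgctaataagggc
Myl9: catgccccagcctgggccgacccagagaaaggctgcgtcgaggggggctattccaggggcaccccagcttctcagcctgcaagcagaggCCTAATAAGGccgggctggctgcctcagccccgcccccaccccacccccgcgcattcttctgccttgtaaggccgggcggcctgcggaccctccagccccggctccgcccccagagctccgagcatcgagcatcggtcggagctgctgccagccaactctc

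Ifit3 itself had 118 CPM in PyMT-M and 17.7 CPM in PyMT-N members (38 and 19 UMIs, log2 ratio 2.73, interval 1.90 to 3.61), and Myl9, in the opposite direction, 58.8 and 260 CPM (19 and 278 UMIs, −2.14, −2.90 to −1.47).

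MHC class I genes, which present peptides to CD8+ T cells, were higher in PyMT-M for 6 of 7 ranked genes, against 5.41% of all, with 0 lower (median 1.65). H2-D1 had 792 and 174 CPM (2.19, 1.91 to 2.47), below the tumor cells' 1779 and 723 CPM, H2-K1 876 and 196 CPM (2.16) and B2m, the shared light chain, 1677 and 536 CPM (1.65). For H2-D1 the part of free tumor RNA was not tested. Reads of near-identical H2 genes may have been split in counting. In tumor cells 6 of 12 ranked genes of the list were higher and 2 lower (median 0.68), against 21% and 25.6% of all genes. In endothelial cells 4 of 12 were higher and 0 lower (median 0.86), against 3.91% and 7.93%. B2m and H2-K1 themselves ran the other way in tumor cells (−0.36 and −0.32) and the same way in endothelial cells (0.83 and 1.15). MHC class II genes were close to absent, with 18.6 and 17.7 CPM over the whole list of 7 genes.

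Complement genes were higher in PyMT-M for 7 of 8 ranked genes, against 5.41% of all, with 1 lower (median 1.96). C3, the central component, had 1167 and 137 CPM (3.09, 2.81 to 3.37), and Cfb, which forms the alternative-pathway convertase, 560 and 49.5 CPM (3.50). The PyMT-N cell with the highest adventitial sum held 60.5% of that library's C3 UMIs. Serping1, the C1 inhibitor, had 1436 and 368 CPM (1.96). Tumor cells had at most 1.96 CPM of C3, 0.215 CPM of Cfb and 0.166 CPM of Serping1, far below the members. Endothelial cells had less of them than the members but the same order, with Cfb at 142 and 26.9 CPM. There 4 of 7 ranked complement genes were higher and 0 lower (median 1.62), against 3.91% and 7.93% of all genes.

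Inflammatory fibroblast genes were higher in PyMT-M for 7 of 12 ranked genes, against 5.41% of all, with 0 lower (median 1.64). The monocyte chemokine gene Ccl2 had 511 and 26.1 CPM (165 and 28 UMIs, log2 ratio 4.29), with a UMI in 19 of 41 and 6 of 43 cells. PyMT-M tumor cells had 494 CPM of Ccl2, nearly the members' level, and the part of free tumor RNA in its ratio was not tested. Cxcl12, the ligand of CXCR4, had 334 and 24.3 CPM (3.78, 3.15 to 4.46), in tumor cells 0.0746 and 56.7 CPM. Saa3, an acute-phase protein gene, had 1541 and 199 CPM (2.95) but came from 13 and 4 cells, and 1 PyMT-N cell held 89.2% of its UMIs there. Cxcl14 (1665 and 933 CPM, 0.84) was within 2-fold. In endothelial cells the list had a median of 1.28 and in tumor cells −1.60.

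Among secreted regulators, the Wnt inhibitor genes Sfrp4 (278.5 and 11.2 CPM, 4.64) and Sfrp2 (1102 and 301 CPM, 1.87) were higher in PyMT-M, and Dkk3 (18.6 and 162.5 CPM, −3.13) and the BMP antagonist gene Grem1 (46.4 and 250.3 CPM, −2.43) lower. Of the 15 Grem1 UMIs in PyMT-M members, 66.7% were in 1 cell. Over the TGF-beta, BMP and Wnt list, 2 of 17 ranked genes were higher and 5 lower, with a median of −0.45. Thinned to equal depth, the 6 genes of this list still ranked had a median of 0.45 (0.27 before thinning), so the sign of the list's median was not stable. Of 12 ranked growth factor genes, 4 were higher and 2 lower (median 0.26). Over all ranked genes 5.41% were higher and 10.4% lower, so the 2 lower growth factor genes and the 2 higher genes of the former list were near those shares. Vegfd, a ligand of the lymphatic receptor VEGFR3, had 170 and 14.9 CPM (55 and 16 UMIs, 3.51). Igfbp3 had 99.0 and 504 CPM (−2.35), with 62.5% of its 32 PyMT-M UMIs in 1 cell.

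Axon guidance genes, whose products also steer vessels and migrating cells, were lower in PyMT-M for 6 of 10 ranked genes, against 10.4% of all, with 1 higher (median −1.32). Sema3a, a semaphorin that signals through neuropilin, had 18.6 and 340 CPM (−4.19, −5.65 to −3.06), from 6 UMIs in 5 PyMT-M cells and 364 UMIs in 36 PyMT-N cells. Thinned to equal depth, 3 of the 10 genes were still ranked, Slit2 (−0.18), Slit3 (−0.52) and Sema3a (−3.75), so that their median of −0.52 does not stand for the list. Shares of cells with a UMI at that depth were 8.11% and 51.2% for Sema3a, 8.11% and 39.5% for the Slit receptor gene Robo1 and 24.3% and 39.5% for Nrp1, a neuropilin. The levels of Sema3a were 4.83 and 6.41 CPM in tumor cells and 18.2 and 53.5 CPM in endothelial cells. The list had a median of −3.98 in tumor cells (9 of 16 lower, 4 higher, against 25.6% and 21% of all genes) and of −0.51 in endothelial cells (5 of 15 lower, 2 higher, against 7.93% and 3.91%). Sema3c ran the other way (149 and 32.7 CPM, 2.18). Slit3 and Slit2, the most abundant, stayed within 2-fold (−0.57 and −0.17). None of the 10 ranked genes has an annotated span under 30 kb, and long genes as a whole were lower in PyMT-M (given below), so no value without long genes can be given.

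Matrix genes outside the collagens moved in both directions. Tnc, tenascin C, had 1027 and 5347 CPM (−2.38, −2.54 to −2.22), with a UMI in 20 of 41 and 40 of 43 cells. Thbs4 was higher in PyMT-M (248 and 14.9 CPM, 4.05), and the small leucine-rich proteoglycans were higher for 4 of 7 ranked genes, against 5.41% of all, with 0 lower. Their median of 1.64 was the ratio of Dcn, a gene of the rule, and it was 0.60 thinned to equal depth (over the 4 genes still ranked, at 0.54 before thinning), 0.54 with at least 200 UMIs per gene and 0.74 among genes under 30 kb. Among the proteoglycans, Prelp had 362 and 26.1 CPM (3.79) and Ogn, osteoglycin, 378 and 39.2 CPM (3.27). Dcn had 4128 and 1321 CPM (1.64). The matricellular median was −0.11 (5 of 18 higher, 4 lower), that of proteases and inhibitors 0.27 (4 of 16 higher, 4 lower) and that of elastic fiber genes 0.36 (2 of 16 higher, 2 lower). Of all ranked genes 5.41% were higher and 10.4% lower, so the 2 lower elastic fiber genes were near the latter share. Mmp13, at −5.39, rested on 1 PyMT-N cell with 96.8% of its UMIs.

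The 10 genes with the highest ratio among those with 10 or more UMIs in each library's members were Pi16, Sfrp4, Serpina3n, Ly6a, Ccl2, Ly6c1, Thbs4, Stmn1, Clec3b and Prelp. The protease inhibitor gene Serpina3n had 551 and 24.3 CPM (4.50), with a UMI in 29 of 41 and 8 of 43 cells. Stmn1, a microtubule regulator, had 161 and 11.2 CPM (3.84), in tumor cells 211 and 81.6 CPM. Among the 10 with the lowest ratio were Brinp3, Col7a1, Spp1, Serpine2, Nrep, Piezo2, Grem1, Crispld2 and Tnc. Brinp3 had 43.3 and 649 CPM (14 and 695 UMIs, −3.91) and Col7a1, the anchoring fibril collagen, 52.6 and 712 CPM (−3.76), and each had a UMI in 6 of 41 PyMT-M cells and in 32 and 39 of 43 PyMT-N cells. Tumor cells had at most 2.67 CPM of Brinp3 and 95.6 CPM of Col7a1. Spp1, osteopontin, had 316 and 3433 CPM (−3.44) with 77.5% of the PyMT-M UMIs in 1 cell, and tumor cells held far more of it (1747 and 25243 CPM, −3.85), and the part of free tumor RNA in its ratio was not tested. Piezo2 and Serpine2 were also far lower in PyMT-M tumor cells (−11.70 and −9.91).

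**Figure D4:**
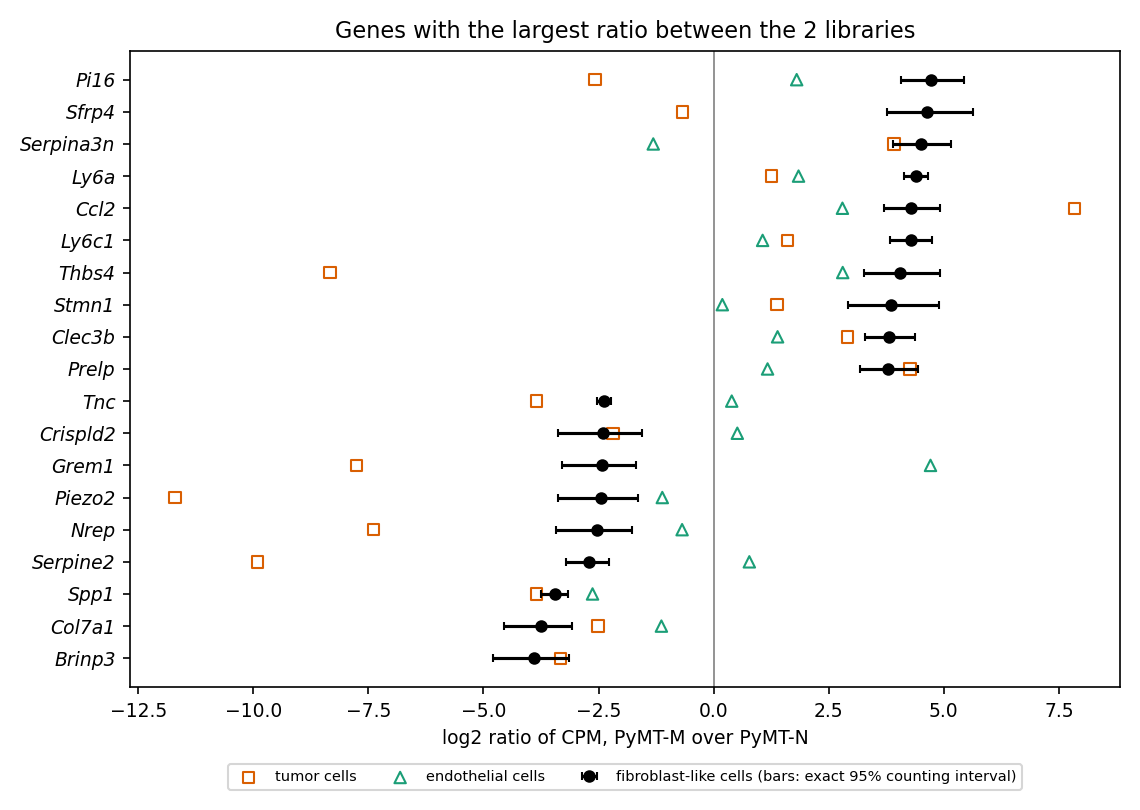
Log2 ratio of CPM, PyMT-M over PyMT-N, for the 10 highest and 9 of the 10 lowest genes of the fibroblast-like cells (black, bars are exact 95% counting intervals), with the ratio in tumor cells (squares) and endothelial cells (triangles) where both libraries had a UMI. Tnc has a ratio of −2.38 in members, −3.85 in tumor cells and 0.39 in endothelial cells.

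Of the 242 genes higher in PyMT-M members, 224 were ranked in tumor cells, where 31.25% were at least 2-fold higher too, against 21% of all 14974 genes ranked there. Of the 466 lower genes, 434 were ranked in tumor cells and 51.6% were at least 2-fold lower there, against 25.6% of all. In endothelial cells the shares were 28.1% of 210 genes, against 3.91% of all 12173, and 13.2% of 394, against 7.93%. The shares of all genes include genes too sparse to be ranked in members, so the sets compared are unlike. Shares among genes ranked in both classes were not computed. Some of the genes that differed between the members thus differed the same way in other cells of the same libraries, and the sort and pool of each library cannot be told apart from the condition.

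**Figure D5:**
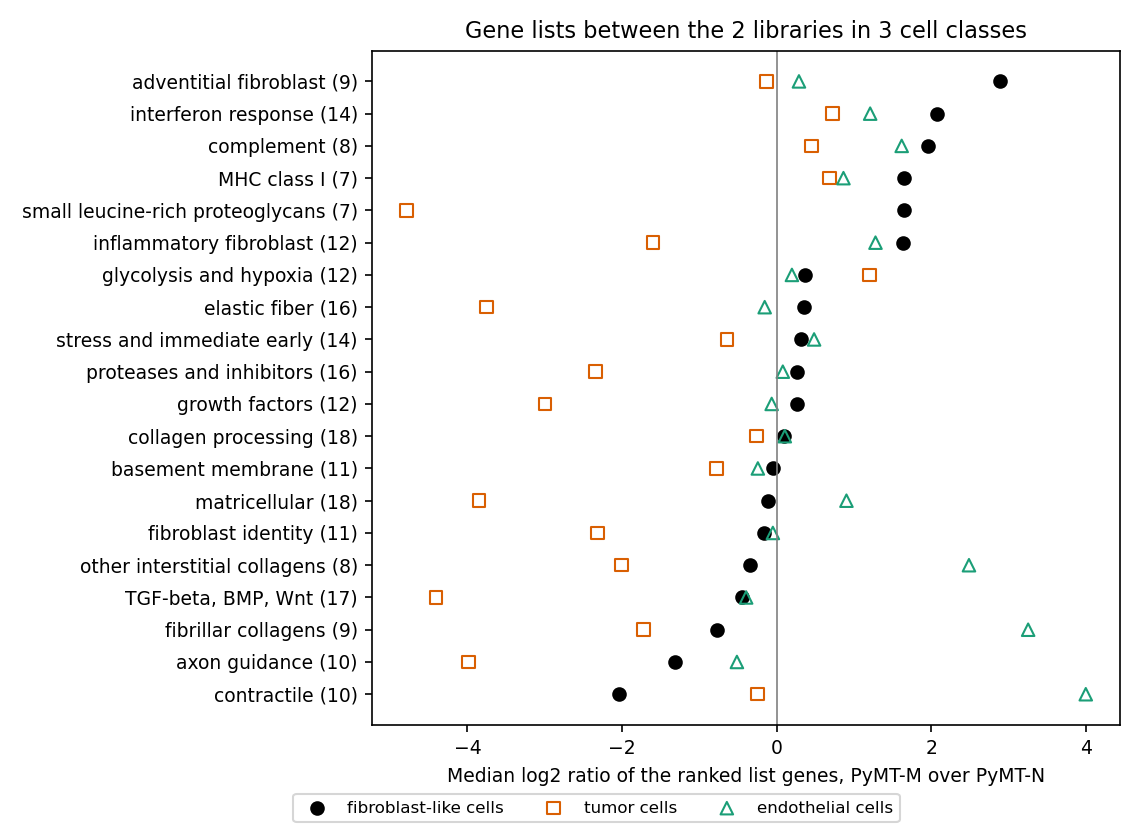
Median log2 ratio (PyMT-M against PyMT-N) of the ranked genes of each list (number of genes ranked in fibroblast-like cells in brackets) in fibroblast-like cells (dots), tumor cells (squares) and endothelial cells (triangles), for lists with at least 5 ranked genes in the class. The contractile list has its lowest value, −2.03, in fibroblast-like cells and lies at 3.999 in endothelial cells.

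Gene length moved with the ratio. Annotated gene spans had a median of 15.5 kb for the genes higher in PyMT-M, 92.2 kb for the lower genes and 30.7 kb for all ranked genes with a span. Genes of 100 kb or more had a median ratio of −0.50 in members, −0.73 in tumor cells and −0.19 in endothelial cells, and Malat1, a nuclear RNA, was lower in PyMT-M members (5722 and 10656 CPM, −0.90) and tumor cells (2606 and 16209 CPM, −2.64). Among genes under 30 kb alone, the contractile median was −2.05, the adventitial 4.05 and the interferon 2.11, from 9 of 10, 6 of 9 and 13 of 14 ranked genes, so the limit left out 1, 3 and 1 of the ranked genes of these lists. Under the same limit the proteoglycan median was 0.74 over 5 of 7 ranked genes, and the number of lower genes 112 in place of 466. The limit also left fewer genes ranked, since of 4461 ranked genes with a span 1058 lay under 10 kb and 1156 from 10 to 30 kb. Mitochondrial shares were alike, with medians of 2.81% in PyMT-M and 2.61% in PyMT-N members.

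Cell-cycle genes had few counts in members. Only 3 of 18 were ranked, too few to read as a list, and 2 of them were higher in PyMT-M, against 5.41% of all ranked genes. The list summed to 981 and 246 CPM, with a median of 167 and 92.2 CPM per cell, against 2133 and 390.1 CPM in tumor cells. Birc5, a regulator of cell division, had 31 and 6 UMIs, and 1 PyMT-M cell held 41.9% of the former. Glycolysis and hypoxia genes had a median of 0.36 (1 of 12 higher and 1 lower) and stress and immediate-early genes of 0.31 (1 of 14 higher and 1 lower). Over all ranked genes 5.41% were higher and 10.4% lower, so these counts were near those shares.

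Mural genes were sparse in the members, the list of 14 summing to 365 and 132 CPM with Ndufa4l2 the most abundant (186 and 54.2 CPM, with 53.3% of its PyMT-M UMIs in 1 cell). At least 3 UMIs over Rgs5, Cspg4, Kcnj8, Abcc9, Notch3 and Higd1b were found in 4 of 41 PyMT-M members (9.76%, interval 2.72 to 23.1%) and in 10 of 43 PyMT-N members (23.3%, 11.8 to 38.6%). The share in tumor cells was 0.0818% (median 23725 UMIs) and 4.04% (20771 UMIs), and in endothelial cells 2.72% and 35.2%. The 6 genes were not specific to mural cells here, since PyMT-N tumor cells had 1121 UMIs of Notch3 (14.9 CPM, against 13.1 CPM in members) and PyMT-N endothelial cells 1910 of Kcnj8 and 2196 of Abcc9. Thinned to 3000 UMIs per cell, 1 of 37 PyMT-M members and 0 of 43 PyMT-N members remained. With 3 cells allowed for 0, the latter share could reach 6.98%, a floor and not an exact binomial interval. These counts are too few to order the libraries at equal depth.

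The pericyte gene Rgs5 had 10 UMIs in 1 PyMT-M member and none in any other member of either library. That PyMT-M cell held 22 mural UMIs among 4942, with 6 of Kcnj8, 3 of Abcc9 and 3 of Higd1b, and 39 of Col1a2, but none of Acta2 or Pdgfra. Among PyMT-N members the highest mural counts were 6 UMIs in 2 cells, 1 with 6 of Cspg4 and 190 of Acta2, the other with 6 of Notch3 and 61 of Acta2. Myh11, smooth-muscle myosin, had 0 and 7 UMIs over all members. Rgs5 was rare in the whole PyMT-N library, with 96 UMIs over 5574 kept barcodes. Its absence therefore does not tell the Acta2-rich PyMT-N members apart from pericytes. In PyMT-M, 3 of the 4 cells with at least 3 UMIs had neither Rgs5 nor Higd1b.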

How the data were processed

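UMI counts per gene and barcode were deposited by the authors as unnormalized matrices made, per the labels' processing notes, with Cell Ranger 8.0.0 on mm39, 1 for each library of 3 pooled tumors (7821 and 6974 barcodes, 141067264 and 116150425 UMIs, 33696 genes). From these counts the members, tumor cells and endothelial cells (Pecam1, Cdh5, Emcn, Flt1 and Kdr at 3 UMIs or more, Krt8, Krt18 and Rhox5 at 2 or fewer) were chosen with Python 3.11.15, numpy 2.4.6 and scipy 1.17.1, and their UMIs were summed and scaled to CPM. Ratios of sums were given with exact 95% Poisson-ratio intervals and shares with Clopper-Pearson intervals. With 1 library per condition, no test was made, and a gene was counted as higher or lower at a 2-fold ratio. A floor of 3 counts per library stood for 0 UMIs. The counting was checked on simulated data.

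Genes named were those of the rule, the 15 leading genes over tumor cells (by the lower of the 2 libraries' ratios, 5 CPM added), the 10 highest and 10 lowest ratios between conditions, and for each of 32 lists up to 4 abundant members and up to 2 highest and 2 lowest. The members and lists were chosen with earlier results of these data known. Doublets were kept. Scrublet (scanpy 1.11.5) scored both libraries. Its automatic limit marked 0 barcodes of PyMT-M and 129 (2.31%) of PyMT-N, none of them a member. The 0 calls do not show that PyMT-M was free of doublets. By score, 2 members of each library were among the highest 6%. Alternatives covered the limits of the rule, depth, scaling, gene minimum, reference cells and span. Aldoa was not listed under that symbol. Gene spans came from a GRCm38 annotation and were used as lengths only. Some genes that the rule would name are not reported here.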

Additional observations from a re-analysis of the deposited data

Results flagged for a closer look

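Small leucine-rich proteoglycan genes stood at −4.79 in tumor cells (median log2, PyMT-M relative to PyMT-N), against 1.64 in the fibroblast-like cells, the latter being the ratio of Dcn, a gene that chose the members, so that the contrast is a description only. Inflammatory fibroblast genes had a median of −1.60 in tumor cells, against 1.64 in the fibroblast-like cells. Contractile genes had a median of 3.999 in endothelial cells, against −2.03 in the fibroblast-like cells, and mural genes were higher with them in the endothelial cells (median 3.84, Rgs5 5.23, Higd1b 4.66 and Myh11 6.48). These lists stood out because their sign differed between cell classes, and the differences were not tested.

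Outside the cells compared, 8 kept PyMT-M barcodes in no class held 3 or more Rgs5 UMIs, and the highest mural sum of an unclassed PyMT-M barcode was 84 UMIs. A further 5 PyMT-M barcodes passed each limit on collagen and other-lineage UMIs but not the gene or mitochondrial limit.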

How the results depend on the processing

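No paired analysis was possible because each condition was 1 library. Of 1346 values recomputed under the alternatives, 1207 moved by no more than the limits set, 135 moved further and 4 were counted as reversed. For the 20 genes with the highest and lowest ratios, 30 of 240 values moved and 0 were counted as reversed. Smaller list medians between conditions changed sign without being counted so. Thinned, the TGF-beta, BMP and Wnt list went from −0.45 to 0.45 and basement membrane from −0.05 to 0.55. Under 30 kb, fibroblast identity went from −0.17 to 0.22. The small leucine-rich proteoglycan median of 1.64 moved under the most settings, at 1.23 with the study's gene limits, 1.21 at 5% mitochondrial UMIs, 1.37 with no other-lineage UMIs, 1.78 as a mean over cells, 0.54 at 200 UMIs, 0.60 thinned, 0.74 under 30 kb, 1.13 to 1.79 with each member left out in turn and 1.79 without the PyMT-N member with the highest adventitial sum. With no other-lineage UMIs allowed, members made up 0.461% of PyMT-M and 0.502% of PyMT-N barcodes. The adventitial median of 2.89 was 4.53 with no other-lineage UMIs, 4.04 thinned, 4.05 under 30 kb and 4.47 without that PyMT-N member, which was also the highest value with a member left out. Complement was at 2.44 with 200 UMIs and under 30 kb and at 2.61 thinned, MHC class I at 2.16 with 200 UMIs, inflammatory genes at 2.22 thinned and axon guidance at −0.52 thinned, where 6 of 9 adventitial, 5 of 8 complement, 6 of 12 inflammatory, 4 of 7 proteoglycan and 3 of 10 guidance genes were still ranked. Before thinning these genes had medians of 4.05, 2.92, 2.41, 0.54 and −0.57, so fewer ranked genes gave much of each shift. The counts of 242 higher and 466 lower genes between conditions became 548 and 956 with a minimum of 20 UMIs, 60 and 120 with 200 and 74 and 73 thinned, fewer genes being ranked at lower depth, and 112 were lower under 30 kb. Against tumor cells, 1087 genes were higher in PyMT-N with 200 UMIs, and 1184 were higher and 1340 lower in PyMT-M with 10 UMIs counted or expected in the members. With endothelial cells as reference, 745 genes were higher in PyMT-M and 3089 lower in PyMT-N. The 4 values counted as reversed were list medians under this reference, basement membrane (−1.08) and interferon response (−0.87) in PyMT-M and adventitial (−1.19) and axon guidance (−0.96) in PyMT-N. Mural shares were 2.44% and 4.65% at 5 UMIs and 2.70% and 0% thinned. The settings on gene span, single members and expected UMIs were chosen after seeing the data. The depth of the PyMT-M members limits genes low in that library.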
